A study of Mus musculus with 12 samples.

Results

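The early growth response genes Egr1, Egr2, Egr3 and Egr4 and the orphan nuclear receptor genes Nr4a1, Nr4a2 and Nr4a3 were followed through intact, dissociated and sorted sensory ganglia. They were chosen by gene symbol and make up 7 of the 24490 genes listed. RNA-sequencing of polyA+ messenger RNA was performed on dorsal root ganglia (DRG), the clusters of sensory nerve cell bodies beside the spinal cord, of adult male C57Bl/6 mice. Each group had 4 samples. Intact DRG were snap frozen whole, from 1 mouse per sample. Unsorted DRG were digested with enzymes at body temperature, triturated, filtered and spun, from 2 mice per sample. MACS-sorted DRG went through the same dissociation and then through an antibody and microbead incubation in the cold and a magnetic column that holds back non-neuronal cells, from 8 mice per sample. No sample was treated with a drug or injured, and no allele was altered in any group. Dissociated cells therefore differed from intact tissue in handling time, temperature, enzyme exposure and mice pooled, all together, and these cannot be told apart. Expression was measured as FPKM, the fragments assigned to a gene scaled to its length and to the size of the library, so that levels can be compared between genes.

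The 7 genes lie on 7 chromosomes in mm10. Egr1 was at chr18:34861207-34864956, Egr2 at chr10:67537869-67542188, Egr3 at chr14:70077445-70082613 and Egr4 at chr6:85511122-85513542. Nr4a1 was at chr15:101266846-101274794, Nr4a2 at chr2:57107226-57124003 and Nr4a3 at chr4:48051248-48083352. Egr4 and Nr4a2 are on the minus strand. All 7 are annotated as protein coding and 0 of them overlapped another annotated gene.

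Both families are immediate early genes: signalling cascades that end in serum response factor or CREB switch them on within minutes of a stimulus, without new protein synthesis. Egr proteins are zinc finger activators, some of them held in check by the Nab co-repressors. Nr4a proteins are nuclear receptors that bind DNA without needing a ligand, and some of them can pair with retinoid X receptors. In sensory ganglia Egr1 and Egr3 are best known as activity markers of neurons, Egr2 is the master regulator of myelination in Schwann cells, and Nr4a1 is an activity marker in many cell types.

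Windows of the RefSeq promoter table (GRCm38.p6) were searched for 5 of the 7 genes, and Egr1 and Egr3 were not searched. The 250 bases before the start were read on both strands for the letters TGACG. These letters are the core of the cAMP response element to which CREB binds. Egr2 and Egr4 held 2 matches each, and Nr4a1, Nr4a2 and Nr4a3 held 4 each. The RefSeq start used for Nr4a3 lay 5943 bases from the start of the gene as deposited, and that for Egr4 lay 47 bases from it. Of 32851 windows in the table, 17.8% held at least 1 match, 3.9% at least 2 and 0.137% at least 4. A CArG box, the site of serum response factor, was found once, in Egr2, at bases -72 to -63 from the start, and 1.47% of all windows held at least 1. The full palindrome TGACGTCA, the Egr site GCGTGGGCG and the Nr4a site AAAGGTCA matched in 0 of the 5 windows, against 1.55%, 0.536% and 1.34% of all windows. A match is a run of letters only. The windows of Egr2, Nr4a1 and Nr4a2 are shown because their starts in RefSeq and in the deposited file were identical and because these genes carry the largest, an intermediate and the smallest of the changes after sorting described below, with the core and the CArG box in capitals and reading 5′ to 3′ on the gene's strand. The core is read as CGTCA where it is on the opposite strand.
Egr2, chr10:67537619-67537868, plus strand: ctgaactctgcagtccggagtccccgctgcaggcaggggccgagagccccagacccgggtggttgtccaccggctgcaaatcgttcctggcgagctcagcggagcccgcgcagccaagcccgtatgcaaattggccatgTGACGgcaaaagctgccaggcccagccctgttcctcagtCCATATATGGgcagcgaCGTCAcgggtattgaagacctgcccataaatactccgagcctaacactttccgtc
Nr4a1, chr15:101266596-101266845, plus strand: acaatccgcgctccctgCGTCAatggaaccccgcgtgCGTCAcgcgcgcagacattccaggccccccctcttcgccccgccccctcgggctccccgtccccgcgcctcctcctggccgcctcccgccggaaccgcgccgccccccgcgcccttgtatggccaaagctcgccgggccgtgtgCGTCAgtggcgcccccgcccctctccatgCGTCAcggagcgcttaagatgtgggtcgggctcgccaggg
Nr4a2, chr2:57124004-57124253, minus strand: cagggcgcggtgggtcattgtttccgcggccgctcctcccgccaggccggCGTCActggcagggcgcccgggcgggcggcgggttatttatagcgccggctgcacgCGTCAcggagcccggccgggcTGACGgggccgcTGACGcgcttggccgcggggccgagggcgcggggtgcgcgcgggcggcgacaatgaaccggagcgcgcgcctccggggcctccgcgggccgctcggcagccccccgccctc

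In intact DRG the 7 genes had a clear order of level. Nr4a1 was the most abundant, at 11.8, 11.4, 12.03 and 10.9 FPKM in replicates 1 to 4 (mean 11.5 ± 0.511, SD, n = 4). Egr2 followed at 6.46 ± 1.64 FPKM and Egr1 at 4.74 ± 1.07 FPKM, and the ranges of these 2 genes overlapped. Nr4a2 was at 2.42 ± 0.161 FPKM and Egr3 at 1.16 ± 0.345 FPKM. Nr4a3 (0.253 ± 0.107 FPKM) and Egr4 (0.0205 ± 0.0137 FPKM) were the lowest, Egr4 at about 0 to 1 fragment per sample. Apart from Egr2 and Egr1, neighbours in this order did not overlap in range. Above a limit of 5 FPKM in all 4 samples, 1 of the 7 genes was expressed in intact DRG (Nr4a1), 3 in unsorted DRG (Egr1, Egr2 and Nr4a1) and 1 in MACS-sorted DRG (Egr1). Of all 24490 genes, 31.4%, 32.2% and 29.2% were expressed by this limit in the 3 groups.

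Dissociation was followed by higher levels of Egr1, Egr3 and Nr4a1, and by no call for Egr2 and Nr4a2. Egr1 was at 6.22, 3.87, 4.02 and 4.84 FPKM in the intact samples and at 23.0, 23.3, 81.0 and 127.6 FPKM in the unsorted samples. Every unsorted sample was above every intact sample, by 4.85, 4.92, 17.1 and 26.9 times the intact mean, with replicates 3 and 4 well above replicates 1 and 2. Egr1 increased by 3.35 ± 0.53 (log2-fold change of FPKM + 0.1 ± SE; limma, adjusted p = 0.00477). In tissue RNA, a change in the number of cells of a type and a change of RNA per cell cannot be told apart.

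Egr3 lay at 0.730, 1.43, 1.45 and 1.04 FPKM in intact DRG and at 2.16, 2.12, 4.55 and 6.73 FPKM in unsorted DRG. The groups did not overlap and replicates 3 and 4 were again the high samples. The increase was 1.54 ± 0.38 (log2, limma, adjusted p = 0.0225). It did not pass without unsorted replicate 3 (1.41, adjusted p = 0.0659), without intact replicate 4 (adjusted p = 0.0543) or with all 12 samples in one fit (adjusted p = 0.055). Egr2 lay at 7.13, 6.15, 8.21 and 4.34 FPKM in intact DRG and at 6.96, 6.37, 14.4 and 28.4 FPKM in unsorted DRG. Unsorted replicates 1 and 2 sat within the intact range and replicates 3 and 4 above it, so the difference of 0.88 ± 0.44 (log2) did not pass the test (limma, adjusted p = 0.179).

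Nr4a1 was at 16.7, 15.9, 40.2 and 60.1 FPKM in unsorted DRG, above all of the intact samples. The increase was 1.29 ± 0.39 (log2, limma, adjusted p = 0.0436). The call was near the threshold and was lost in 9 of 19 alternatives. Leaving out unsorted replicate 3 or 4 gave 1.12 and 0.93 (adjusted p = 0.116 and 0.0752), and leaving out intact replicate 2, 3 or 4 gave 1.28, 1.31 and 1.26 (adjusted p = 0.0811, 0.0752 and 0.0925). It was also lost with no filter, without the trend, with quantile normalization and with all 12 samples in one fit (limma, adjusted p = 0.058, 0.0531, 0.052 and 0.169). Nr4a2 was at 2.28, 2.28, 2.59 and 2.53 FPKM in intact DRG and at 2.63, 2.23, 3.62 and 5.76 FPKM in unsorted DRG. Its groups overlapped in the low samples, and the difference of 0.45 ± 0.25 (log2) did not pass (limma, adjusted p = 0.225).

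In all, 3 of the 5 genes above the filter (1 FPKM or more on average over the 8 samples) passed an adjusted p of 0.05 upwards and 0 downwards (limma; the same numbers at an unadjusted p under 0.05), where 14.8% of the 12392 genes tested passed upwards and 7.79% downwards. All 4 unsorted samples were above all 4 intact samples for the same 3 genes, and for 20.8% of all genes. With a log2 ratio of group means over 0.5 and more than 5 FPKM on average in the higher group required as well, Egr1 and Nr4a1 were called higher, against 4.29% of all genes, and Egr3 did not reach that level.

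**Figure D1:**
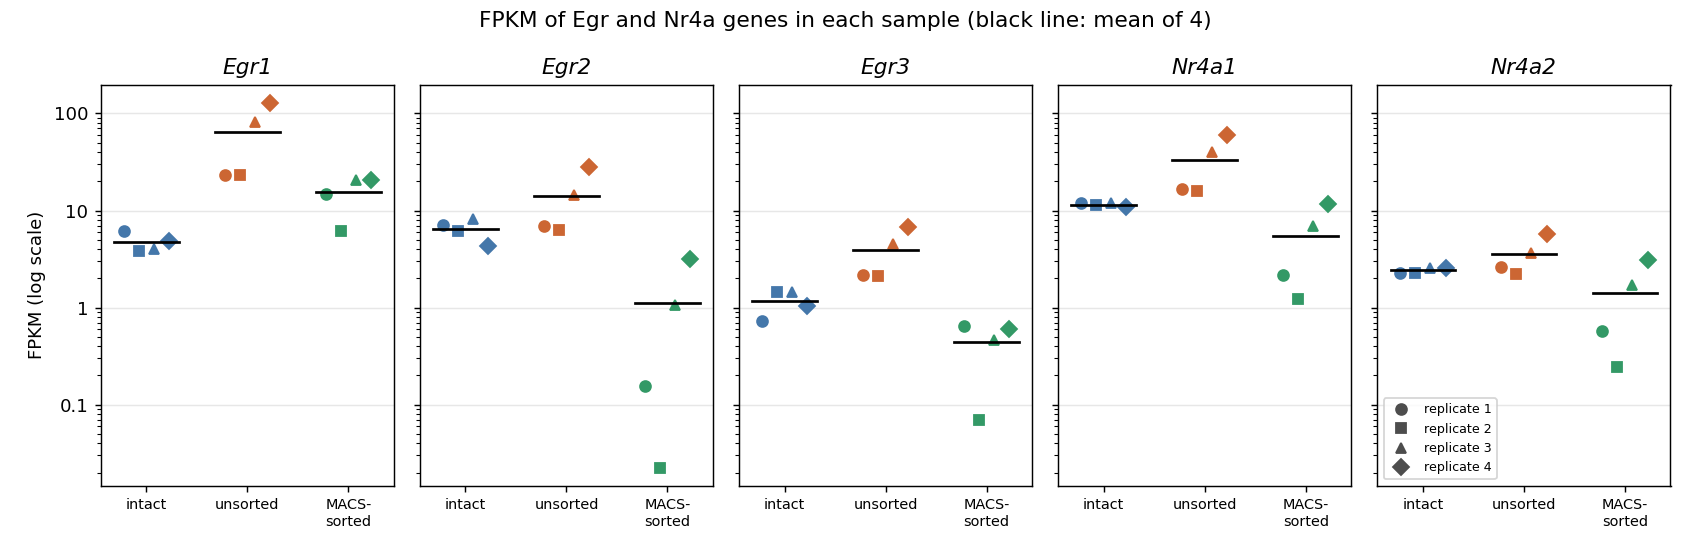
FPKM of Egr1, Egr2, Egr3, Nr4a1 and Nr4a2 (log axis) in the 4 intact, 4 unsorted and 4 MACS-sorted samples, with 1 marker shape per replicate number and a black line at the group mean. The unsorted points of Egr1, Egr3 and Nr4a1 all lie above the intact points, unsorted replicates 3 and 4 are the upper pair in every panel, and MACS-sorted replicate 2 is the lowest MACS-sorted point in every panel.

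Against unsorted DRG, Egr1, Egr2, Egr3 and Nr4a1 were lower after sorting, and Nr4a2 did not pass the test. Egr2 was at 0.156, 0.0225, 1.07 and 3.20 FPKM in MACS-sorted DRG, all below the unsorted samples and all below the intact samples. The change against unsorted DRG was -4.31 ± 0.95 (log2, limma, adjusted p = 0.00435), or -2.83 with 1 FPKM added in place of 0.1 (adjusted p = 0.00149). Egr3 was at 0.640, 0.0692, 0.463 and 0.597 FPKM, again below every unsorted sample, with a change of -2.92 ± 0.54 (log2, limma, adjusted p = 0.00158), or -1.67 with 1 FPKM added (adjusted p = 0.00101).

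Egr1 was at 14.7, 6.11, 20.9 and 20.5 FPKM in MACS-sorted DRG. These values lay below all unsorted samples, the nearest being 20.9 against 23.0 FPKM, and the change was -1.78 ± 0.60 (log2, limma, adjusted p = 0.0344). The call was lost in 5 of 19 alternatives, without unsorted replicate 3 or 4 (-1.54 and -1.32, adjusted p = 0.0968 and 0.0841), without MACS-sorted replicate 1 or 2 (-1.81 and -1.39, adjusted p = 0.0614 and 0.0829) and without the trend (adjusted p = 0.0524), while over all the alternatives run for this change the adjusted p ranged from 0.00217 to 0.0968. Nr4a1 was at 2.15, 1.23, 6.93 and 11.8 FPKM, below every unsorted sample, with a change of -2.84 ± 0.69 (log2, limma, adjusted p = 0.00762). Nr4a2 was at 0.573, 0.242, 1.73 and 3.09 FPKM and overlapped the unsorted range through replicate 4, with a difference of -1.67 ± 0.63 (log2, limma, adjusted p = 0.0535). It passed in 4 of 18 alternatives, among them 1 FPKM added in place of 0.1, where the difference was -1.02 (adjusted p = 0.0436).

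Thus 4 of the 5 genes tested passed downwards and 0 upwards (limma; 5 and 0 at an unadjusted p under 0.05), where 27.7% of the 12038 genes tested passed downwards and 18.8% upwards. The same 4 genes had all MACS-sorted samples below all unsorted samples, as had 27.8% of all genes, and 3 of them (Egr1, Egr2 and Nr4a1) also met the limits on ratio and level, against 12.5% of all genes. Egr3 missed the limit on level. This comparison shares its 4 unsorted samples with the comparison of dissociation, and the values of the 2 are not independent.

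The net difference between sorted cells and intact DRG, which does not use the unsorted samples, split the Egr family. Egr1 was higher after sorting, 15.6 ± 6.90 against 4.74 ± 1.07 FPKM, a change of 1.57 ± 0.36 (log2, limma, adjusted p = 0.0077). MACS-sorted replicate 2, at 6.11 FPKM, was within the intact range, whose highest sample was at 6.22 FPKM, and the other MACS-sorted samples were above it. Egr2 was lower, 1.11 ± 1.47 against 6.46 ± 1.64 FPKM, a change of -3.44 ± 0.88 (log2, limma, adjusted p = 0.0134), or -2.03 with 1 FPKM added in place of 0.1 (adjusted p = 0.00348).

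Nr4a1 (-1.55 ± 0.58, log2, limma, adjusted p = 0.067) and Nr4a2 (-1.23 ± 0.60, adjusted p = 0.142) did not pass against intact DRG. Their MACS-sorted samples were spread over a far wider range than the intact samples, with a coefficient of variation of 88.0% against 4.43% for Nr4a1 and 91.5% against 6.66% for Nr4a2. Both genes had MACS-sorted replicate 4 within or above the intact range and the other replicates below it. Without that library they passed (Nr4a1 -2.07, adjusted p = 0.00992; Nr4a2 -1.75, adjusted p = 0.0238; limma). Egr3 was under the filter in this comparison, its MACS-sorted samples all below the lowest intact sample (0.640 against 0.730 FPKM at the nearest). Of the 4 genes tested, 1 passed upwards and 1 downwards, where 14.1% and 20.6% of 12234 genes did. Both also met the limits on ratio and level, against 7.54% (higher) and 10.7% (lower) of all genes, and Egr2 alone had no overlap between groups, all samples being lower as for 21.9% of all genes.

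**Figure D2:**
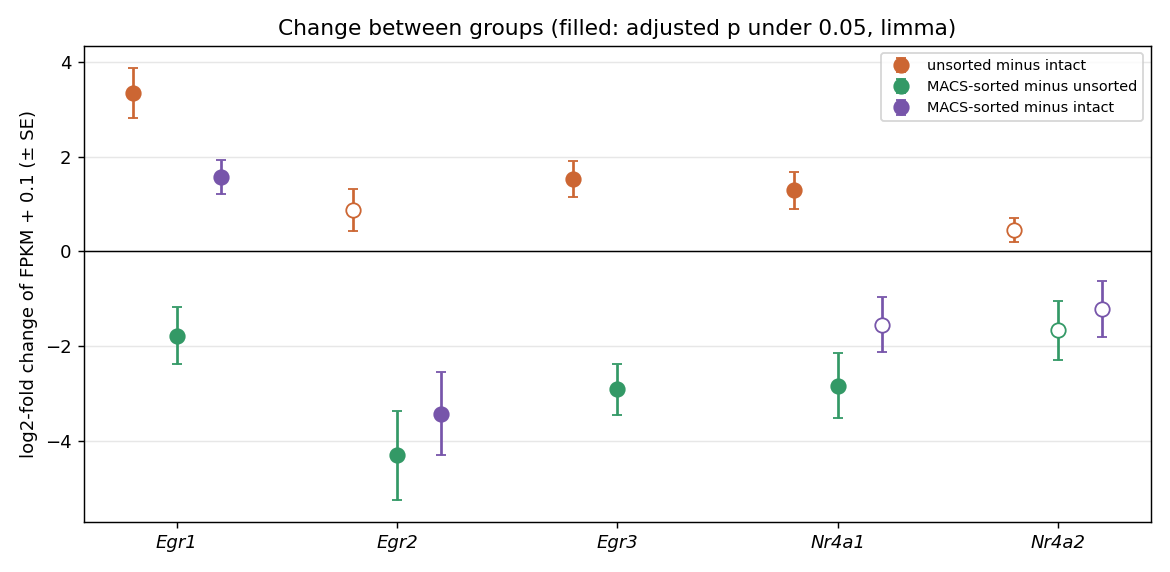
Log2-fold change of FPKM + 0.1 (points) with its standard error (bars) for each gene above the filter in the 3 comparisons, filled where the adjusted p was under 0.05. Egr1 is positive against intact DRG both before (3.35) and after sorting (1.57), whereas Egr2 moves from 0.88 to -3.44.

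The balance between family members was compared directly by the log2 ratio of their values within each sample, with 0.1 FPKM added to each value for the tests. In intact DRG Egr1 was at 0.490 to 1.12 times the FPKM of Egr2, in unsorted DRG at 3.30 to 5.62 times and in MACS-sorted DRG at 6.41 to 272 times. The groups were in order without overlap. Egr1 rose relative to Egr2 by 2.48 (log2) on dissociation and by 5.01 between intact and MACS-sorted DRG (exact permutation tests, p = 0.0286 each, the smallest that 4 against 4 samples allow, adjusted over the 10 ratios tested p = 0.0358). Between unsorted and MACS-sorted DRG the shift was 2.53 (exact permutation p = 0.0286), and it depended on how the very low Egr2 values were treated, since it was 1.12 (exact permutation p = 0.0571) with 1 FPKM added to each value in place of 0.1. The shift between intact and MACS-sorted DRG was 3.45 in place of 5.01 with 1 FPKM added (exact permutation p = 0.0286), and that on dissociation 2.33 in place of 2.48.

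Egr1 also rose relative to Egr3 on dissociation, by 1.82 (log2, exact permutation p = 0.0286, adjusted p = 0.0358). Egr2 relative to Egr3 differed by -0.66 with overlapping groups (exact permutation p = 0.0857). Nr4a1 gained on Nr4a2 by 0.84 on dissociation and fell by 1.16 relative to it on sorting, with no overlap between groups in either (exact permutation p = 0.0286 each, adjusted p = 0.0358). The FPKM of Nr4a1 was 4.30 to 5.18 times that of Nr4a2 in intact DRG, 6.35 to 11.1 times in unsorted DRG and 3.75 to 5.08 times in MACS-sorted DRG, a range in MACS-sorted DRG that reached into the intact range. With 0.1 FPKM added to each value the MACS-sorted samples were all below the intact samples, by 0.32 on average (difference -0.32, log2, exact permutation p = 0.0286, adjusted p = 0.0358). Both this separation and its size depended on the constant, since the plain ratios overlapped. The difference was -0.62 with 1 FPKM added (exact permutation p = 0.0286).

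A ratio across the families was added after the values were seen and was not tested. Egr1 was at 0.334 to 0.526 times the FPKM of Nr4a1 in intact DRG, at 1.38 to 2.12 times in unsorted DRG and at 1.75 to 6.85 times in MACS-sorted DRG. Nr4a1 was therefore above Egr1 in every intact sample and below it in every dissociated sample, sorted or not.

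**Figure D3:**
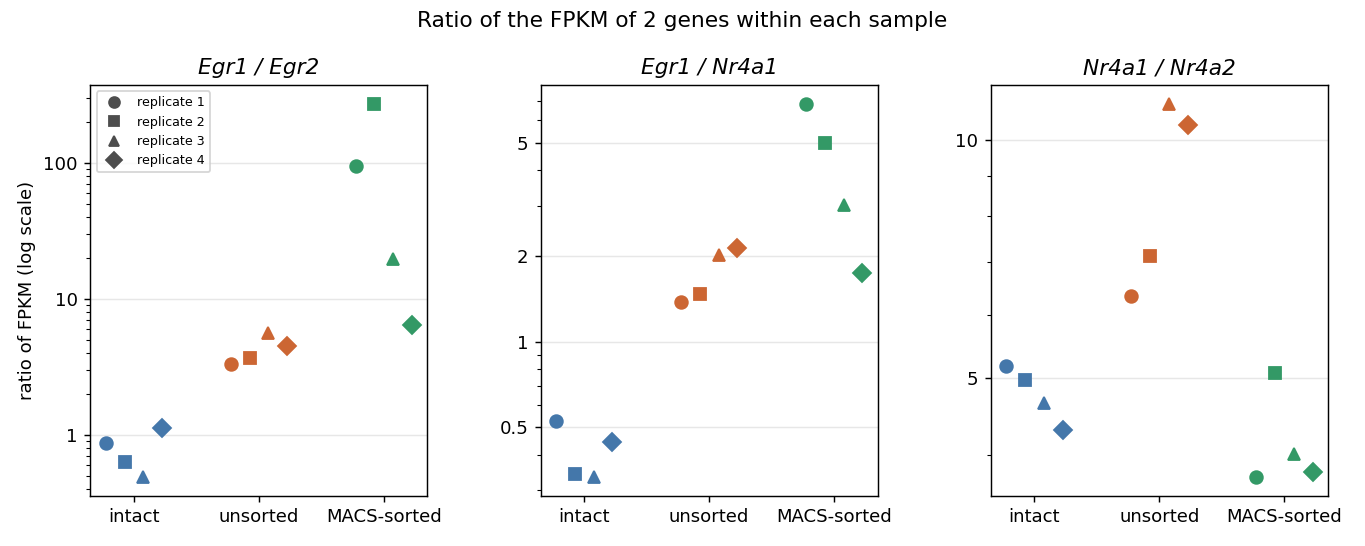
Ratio of the FPKM of Egr1 to Egr2, Egr1 to Nr4a1 and Nr4a1 to Nr4a2 (log axis) within each of the 12 samples, by group and replicate number. The first ratio climbs from 0.490 to 1.12 in intact DRG up to 272 in MACS-sorted replicate 2, where Egr2 was at only 0.0225 FPKM. The last ratio is highest in unsorted DRG (6.35 to 11.1).

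The spread within groups was partly shared between the members of the families. Unsorted replicate 4 was the highest unsorted sample for all 7 genes, and for 5 of the 5 that averaged 1 FPKM or more, where it was the highest for 20.3% of 12283 genes. Unsorted replicate 2 was the lowest for 4 of the 5 genes and replicate 1 for Egr1, against 16.9% and 19.1% of all genes. MACS-sorted replicate 2 was the lowest MACS-sorted sample for all 5 genes (24.2% of all genes), and replicate 4 the highest for Egr2, Nr4a1 and Nr4a2 (29.3% of all genes). Egr1 was highest in MACS-sorted replicate 3 and Egr3 in replicate 1 (16.3% and 23.2% of all genes). In intact DRG the coefficient of variation was between 4.43% (Nr4a1) and 29.6% (Egr3) for these 5 genes, and 42.4% for Nr4a3 and 66.8% for Egr4. Over all genes, intact replicate 1 stood apart, at a root mean square log2 difference of 0.705 to 0.723 from the other intact samples, which were 0.352 to 0.378 from each other. Without it Egr1, Egr3 and Nr4a1 still passed on dissociation (3.49, 1.35 and 1.30, limma, adjusted p = 0.00187, 0.0219 and 0.039), as did Egr1 and Egr2 in MACS-sorted against intact DRG (1.71 and -3.38, adjusted p = 0.00925 and 0.0291), while the genes past the threshold on dissociation went from 2793 of 12392 to 4390 of 12294. Unsorted replicates 1 and 2 were the closest pair of the series (root mean square log2 difference 0.335, against 0.361 to 0.426 for the other unsorted pairs). The study describes 4 biological replicates per condition, with material of 2 mice in each unsorted sample. The values alone do not show whether replicates 1 and 2 were separate preparations. With unsorted replicates 1 and 2 averaged as 1 sample, Egr1, Egr3 and Nr4a1 still passed on dissociation (adjusted p = 0.00944, 0.0274 and 0.0351) and Egr1, Egr2, Egr3 and Nr4a1 on sorting (adjusted p = 0.0212, 0.00836, 0.00296 and 0.0108, limma). The permutation tests were not run with these 2 averaged. The files do not say which mice or days the samples came from, and p-values measure the spread between these samples.

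Likeness was measured by Pearson's r of log2 values over the 12 samples, among 8263 genes that averaged 5 FPKM or more over these samples. The genes most like Egr1 were Jun (r = 0.98), Zfp36 (0.978) and Ier2 (0.973), all themselves immediate early genes. The genes most like Egr2 were Mt1, a metallothionein (0.967), Nr4a1 (0.964) and Dnajb4, a heat shock protein (0.961). Nr4a1 was most like Egr2 (0.964), Galc (0.941) and Sptb (0.935), and Nr4a2 was most like Nr4a1 (0.957), Egr2 (0.956) and 1810011O10Rik (0.938). Egr3 was most like Gria4 (0.949), Znrf1 (0.946) and Elac1 (0.946). Egr2 and Nr4a1 were each among the nearest genes of the other. Egr3 and Nr4a2 averaged 3.89 and 3.56 FPKM in their highest group, so their averages over the 12 samples were under this limit. They were therefore not themselves among the genes compared. These are descriptions over samples that fall into 3 preparations. With Spearman's rho, 1 of the 15 pairs remained among the nearest.

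Other immediate early genes were compared as a list of 24, of which 22 passed the filter. On dissociation 12 rose and 0 fell (limma; 13 and 1 at an unadjusted p under 0.05), where 14.8% of all genes rose and 7.79% fell, with a median log2-fold change of 1.28 against 0.01 over all genes tested. Fosb, a partner of the Jun proteins in the AP-1 complex, was at 0.334, 0.296, 0.365 and 0.355 FPKM in intact DRG and at 8.93, 8.32, 35.8 and 71.1 FPKM in unsorted DRG (5.59 ± 0.63, log2, limma, adjusted p = 0.0016). The pattern of 2 lower and 2 higher unsorted samples was the same as for the Egr and Nr4a genes other than Egr4. Fos rose by 5.25 ± 0.54, Junb by 2.73 ± 0.37 and Zfp36, which destabilises inflammatory messenger RNAs, by 2.72 ± 0.57 (log2, limma, adjusted p = 0.00125, 0.00289 and 0.0128). Egr1 was thus below Fosb and Fos in the size of its rise and above the rest of the list, and Nr4a1 was near the list's median.

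After sorting, against intact DRG, 12 of 21 genes of the list were higher and 2 were lower (limma; median 0.88 against -0.04 over all genes), where 14.1% of all genes were higher and 20.6% lower. Among the higher genes were Fosb (4.50 ± 0.38), Fos (3.58 ± 0.33), Atf3, a stress-induced transcription factor of injured neurons (2.40 ± 0.16), and Junb (2.24 ± 0.17), all with limma adjusted p below that of Egr1. Atf3 was at 14.9, 15.3, 16.8 and 16.3 FPKM in MACS-sorted DRG, a narrow range that included replicate 2, the low sample for all 5 Egr and Nr4a genes. Per1, a clock gene, and Ctgf, a matrix signalling gene, were lower (-1.18 ± 0.20 and -1.28 ± 0.42, log2, limma, adjusted p = 0.00147 and 0.0406). Against unsorted DRG 4 of 22 genes were higher and 7 lower, shares near those of all genes (18.8% higher and 27.7% lower), Arc, a synaptic activity gene, having the lowest value (-2.49 ± 0.57, limma, adjusted p = 0.00529), between those of Egr3 and Egr1.

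**Figure D4:**
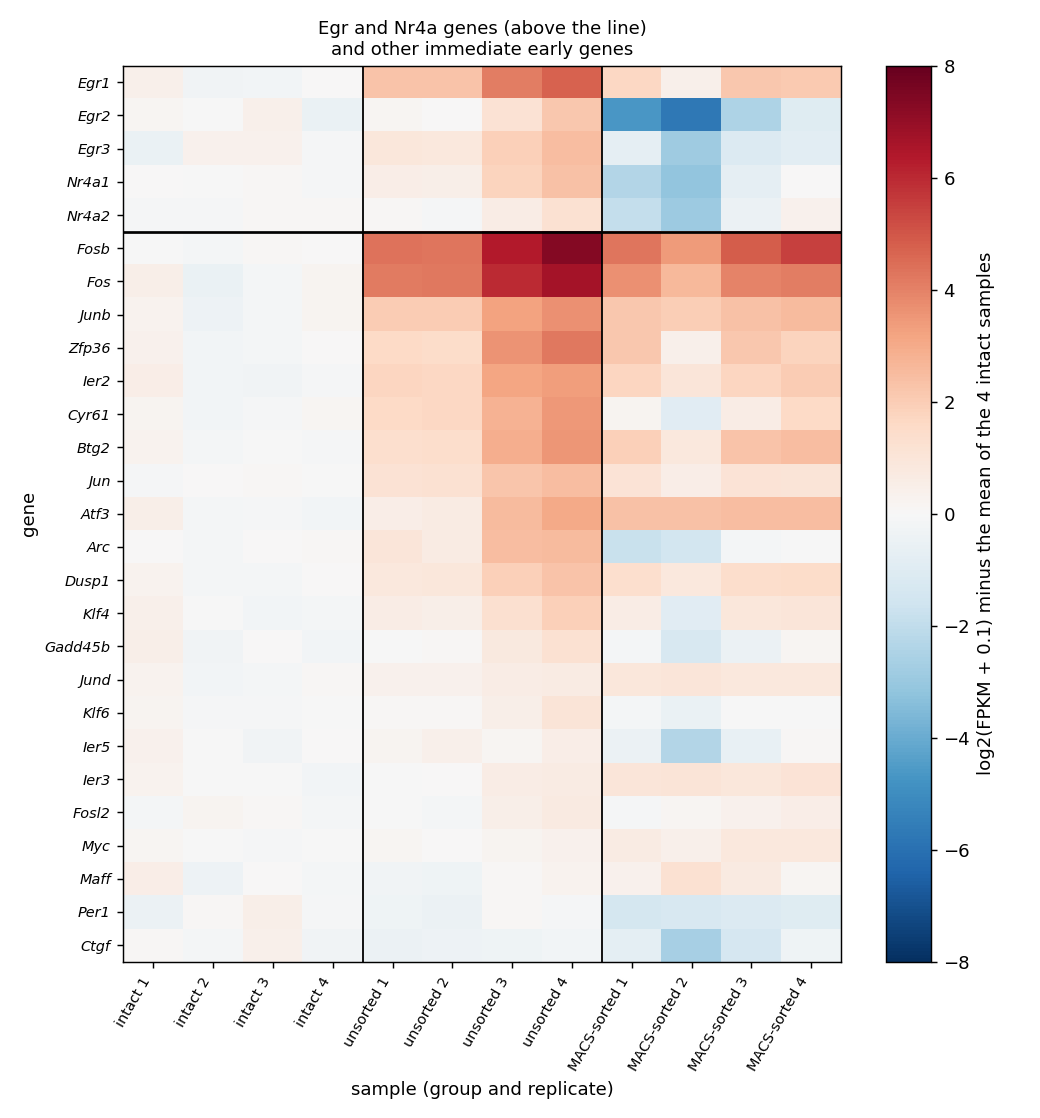
Log2(FPKM + 0.1) of 5 Egr and Nr4a genes (above the line) and 22 other immediate early genes in each of the 12 samples, as the difference from the mean of the 4 intact samples (red higher, blue lower). Unsorted replicates 3 and 4 are darker than replicates 1 and 2 for most genes. In the MACS-sorted columns Egr1 stays red, as do Fosb, Fos, Junb and Atf3, whereas Egr2 is the darkest blue.

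Regulators that act above the 2 families were counted in the same way. Of 15 transcription factors upstream (serum response factor, its partners, CREB and MEF2), 1 rose on dissociation (Mkl1, a coactivator of serum response factor, 0.39 ± 0.10, adjusted p = 0.0273) and 1 fell (Atf1, -0.43 ± 0.11, adjusted p = 0.0209, limma), where 14.8% of all genes rose and 7.79% fell. Of 15 kinases of the MAP kinase cascade, 0 passed on dissociation in limma (2 higher and 0 lower at an unadjusted p under 0.05), and the median change was 0.10. After sorting, against unsorted DRG, 5 of the 15 kinases rose and 2 fell, where 18.8% of all genes rose and 27.7% fell, the largest change being that of Rps6ka1, a kinase downstream of ERK (-1.18 ± 0.24, limma, adjusted p = 0.00288). Messenger RNA level does not measure the activity of these kinases and factors.

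Among partners of the Egr and Nr4a proteins, the retinoid X receptor Rxra was at 6.41, 6.38, 6.20 and 5.84 FPKM in unsorted DRG and at 2.08, 2.09, 1.83 and 1.80 FPKM in MACS-sorted DRG (-1.62 ± 0.10, log2, limma). Its values were tight in both groups. Rxrg (-0.99 ± 0.29, limma, adjusted p = 0.0192) and the Egr co-repressor Nab1 (-0.53 ± 0.11, adjusted p = 0.00378) also fell, and Rxrb was 14.7 ± 0.992 FPKM before and 16.5 ± 0.531 FPKM after sorting. On dissociation 0 of these 4 genes passed (limma, and also 0 at an unadjusted p under 0.05), where 14.8% of all genes rose and 7.79% fell. On sorting 18.8% of all genes rose and 27.7% fell. Nab2, the other Egr co-repressor and itself an Egr target, was listed at 0 in 11 samples and at 5.38 FPKM in intact replicate 1, so it was not tested.

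Genes known as Egr targets outside myelin differed among themselves. On dissociation, of 7 tested, 2 rose (Arc, 1.64 ± 0.42, and Cdk5r1, an activator of the neuronal kinase Cdk5, 0.47 ± 0.06), 1 fell (Vegfa, -0.37 ± 0.11) and the median was 0.07 against 0.01 over all genes (limma, adjusted p = 0.0258, 0.0028 and 0.0474), where 14.8% of all genes rose and 7.79% fell. Arc is also on the list of immediate early genes. After sorting, against intact DRG, 1 of 6 was higher and 4 were lower, where 14.1% of all genes were higher and 20.6% lower.

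The fall of Egr2 after sorting went with that of Schwann cell genes. The 7 myelin genes that Egr2 is known to control in Schwann cells served also as the markers of myelinating Schwann cells, and their summed level was 4539, 2993, 3377 and 2567 FPKM in intact DRG, 2850, 2868, 2004 and 3245 FPKM in unsorted DRG and 569, 517, 591 and 1204 FPKM in MACS-sorted DRG. The sum was lower in all MACS-sorted samples and was highest there in replicate 4, the sample with the most Egr2. Against unsorted DRG 6 of the 7 fell (median -4.21), where 27.7% of all genes fell. Among them were Gjb1 (-3.71 ± 0.42) and Pmp22 (-0.92 ± 0.18), and Mbp did not pass (-1.19 ± 0.50, limma, adjusted p = 0.0769). What remained of the sum was mostly Pmp22 and Mbp, and Mag was listed at 0 in MACS-sorted replicate 2.

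On dissociation, where Egr2 did not pass, 1 of these 7 genes fell (Gjb1, -0.77 ± 0.21, limma, adjusted p = 0.0311) and 0 rose (1 rose and 3 fell at an unadjusted p under 0.05), where 7.79% of all genes fell and 14.8% rose. Sox10, the factor that acts with Egr2 on myelin genes, was at 27.9, 28.7, 23.3 and 24.5 FPKM in unsorted DRG and at 0.258, 0.149, 0.361 and 2.32 FPKM in MACS-sorted DRG (-5.54 ± 0.59, log2, limma). The MACS-sorted samples had the same order for Sox10, Egr2, Nr4a1 and Nr4a2, replicate 2 lowest, then 1, 3 and 4. In unsorted DRG Egr2, Nr4a1 and Nr4a2 had this order too, whereas Sox10 was lower in replicates 3 and 4 than in 1 and 2. Sox2 was listed at 0 in MACS-sorted replicates 1 and 2. Without MACS-sorted replicate 4, the change of Egr2 was -5.14 ± 0.77 against unsorted DRG and -4.27 ± 0.67 against intact DRG (limma, adjusted p = 0.000623 and 0.00154), and without MACS-sorted replicate 2 it was -3.56 ± 0.83 and -2.68 ± 0.73 (adjusted p = 0.00772 and 0.0239).

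Markers of other cell types moved too, on sorting, where 27.7% of all genes fell and 18.8% rose. Satellite glia markers (6 genes, led by Fabp7) summed to 574, 551, 417 and 473 FPKM in unsorted DRG and to 110, 84.5, 110 and 129 FPKM in MACS-sorted DRG, and 6 of the 6 fell on sorting, most of what remained being Glul. Fibroblast markers (6 genes, led by Dcn) fell for 5 of 6, from a sum of 168 to 337 FPKM down to 7.62 to 32.4 FPKM, and Lum was listed at 0 in 3 MACS-sorted samples. Macrophage markers (7 genes, led by C1qb) fell for 3 of the 3 tested, from a sum of 9.17 to 19.99 FPKM down to 0.608 to 2.22 FPKM, with between 1 and 5 of the 7 at 0 in each MACS-sorted sample.

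Endothelial markers followed another course. All 6 (led by Cldn5) rose on dissociation, their sum being 20.2 to 23.7 FPKM in intact DRG and 50.5, 49.98, 38.2 and 44.8 FPKM in unsorted DRG. In MACS-sorted DRG the sum was 50.4, 11.4, 44.0 and 68.1 FPKM and 0 of 6 passed against unsorted or intact DRG (limma; 0 and 1 at an unadjusted p under 0.05), with every marker above 0 in every sample. MACS-sorted replicate 2 was thus the lowest MACS-sorted sample for endothelial markers as for Egr1, Egr2, Egr3, Nr4a1 and Nr4a2. The same sample was also lowest for the satellite glia (84.5 FPKM), myelinating Schwann cell (517 FPKM) and large-diameter neuron (81.2 FPKM) sums. For the fibroblast and macrophage sums it was not the lowest, and for the pan-neuronal (5739 FPKM) and nociceptor (4270 FPKM) sums it was the highest. In unsorted DRG, in contrast, replicates 3 and 4, the samples highest in Egr and Nr4a genes, were the lower pair for the endothelial and satellite glia sums and the higher pair for the large-diameter neuron sum (781, 766, 938 and 865 FPKM in replicates 1 to 4). Satellite glia markers rose for 4 of 6 genes on dissociation, fibroblast markers fell for 6 of 6 and macrophage markers for 5 of 7. Of all genes, 14.8% rose and 7.79% fell on dissociation. After sorting 18.8% rose and 27.7% fell against unsorted DRG, and 14.1% rose and 20.6% fell against intact DRG.

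Neuronal markers moved by class. The 8 pan-neuronal genes summed to 4906 to 5423 FPKM in intact, 6138 to 6702 FPKM in unsorted and 4447 to 5739 FPKM in MACS-sorted DRG, and large-diameter neuron markers (6 genes, led by Nefh) summed to 766 to 938 FPKM in unsorted DRG and to 81.2 to 145 FPKM after sorting. All 6 fell on sorting (limma, median -2.89), Nefh making up most of the sum, and Etv1 overlapped between the groups (-0.57 ± 0.18, adjusted p = 0.0241). Nociceptor markers (10 genes, led by Prph) summed to 2696 to 2817 FPKM in unsorted and to 3079 to 4270 FPKM in MACS-sorted DRG without overlap, and 8 of 10 rose and 1 fell on sorting (limma). Of all genes, 18.8% rose and 27.7% fell on sorting. Red blood cell genes rose on sorting for 6 of 6 tested, to 1678, 2532, 12538 and 15360 FPKM, the samples with more of them (3 and 4) also having more Egr2, Nr4a1 and Nr4a2. In unsorted DRG the order was the other way. The red blood cell sum was 369, 400, 112 and 172 FPKM, lower in replicates 3 and 4, which had more Egr2, Nr4a1 and Nr4a2. The part that any of these cell types had in the Egr and Nr4a values was not tested.

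**Figure D5:**
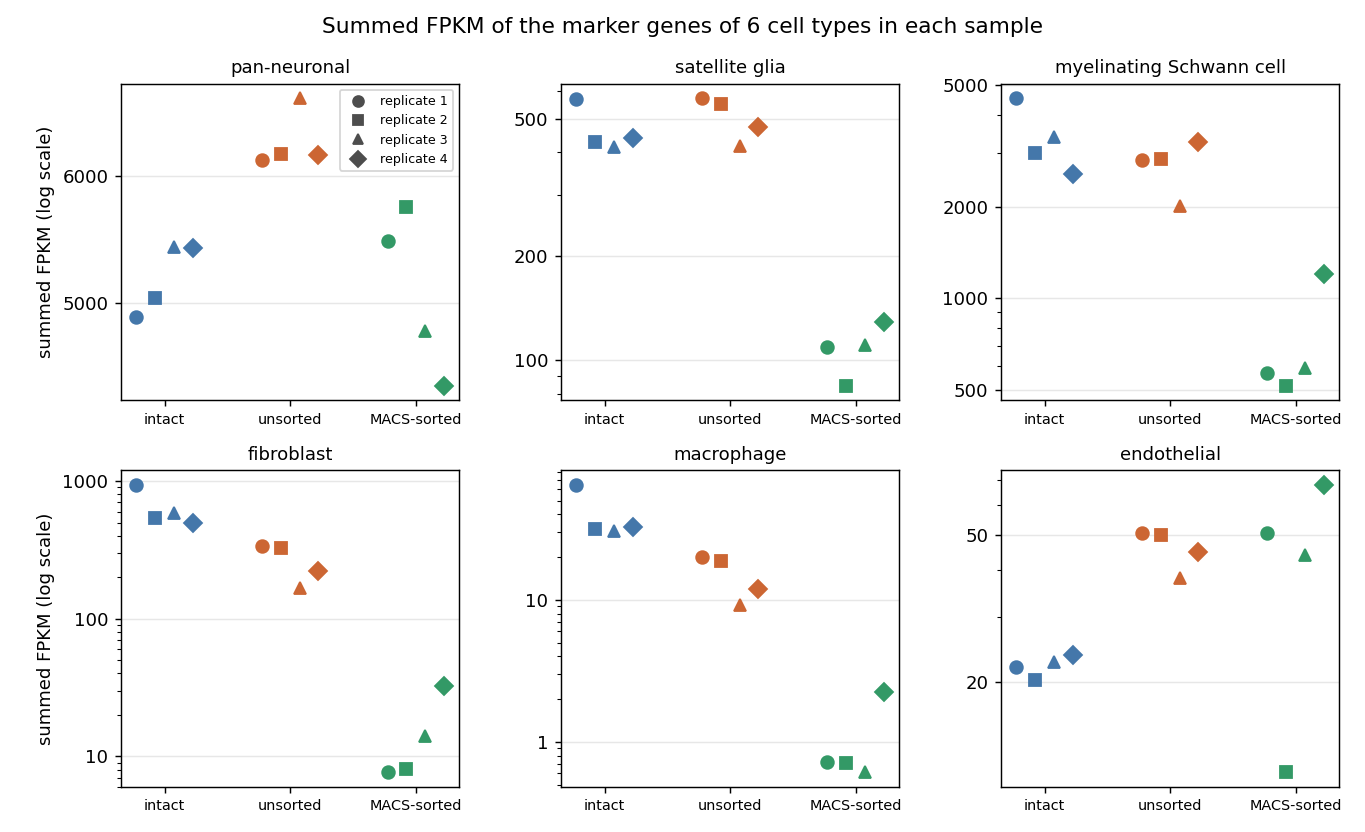
Summed FPKM (log axis, a separate scale in each panel) of marker genes of 6 cell types in each sample, by group and replicate number. Satellite glia, Schwann cell, fibroblast and macrophage sums are low in all MACS-sorted samples, with replicate 4 the highest of them, whereas the endothelial sum is low in MACS-sorted replicate 2 alone (11.4 FPKM).

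Egr4 and Nr4a3 were under the filter in every comparison. Egr4, the member of its family most restricted to neurons, was at 0.119, 0.0555, 0.0622 and 0.163 FPKM in unsorted DRG, and listed at 0 in 1 intact and 2 MACS-sorted samples. At an estimated 13400000 to 19100000 fragments per sample these values stand for about 0 to 5 fragments. In a fit with no filter, Egr4 on dissociation had an adjusted p of 0.0475 (0.70 ± 0.20, log2, limma), with every unsorted sample above every intact sample, from 2 to 5 fragments against 0 to 1. Nr4a3 was at 0.177, 0.409, 0.238 and 0.188 FPKM in intact DRG, at 0.0669, 0.0627, 0.176 and 0.405 FPKM in unsorted DRG and at 0, 0.148, 0 and 0 FPKM in MACS-sorted DRG. That is about 14 to 41 fragments per intact sample, 6 to 35 per unsorted sample and 0 to 13 per MACS-sorted sample. With no filter, Nr4a3 was lower in MACS-sorted than in intact DRG (-1.45 ± 0.35, log2, limma, adjusted p = 0.0122), in all samples. The unsorted replicates 3 and 4 were again the higher pair for Nr4a3, but, unlike Nr4a1, their values reached no higher than those of intact DRG.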

How the data were processed

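The authors aligned 100-base reads to mm10 with TopHat2, merged alignments with SAMtools and used Cufflinks 2.1.1; the deposited table holds FPKM per gene and sample, with no counts. All 12 columns matched a sample. Comparison columns of the study were not used. Per-gene depth was estimated from the spacing of low FPKM values for an assumed fragment of 150 bases (within 0.1 of whole fragments for 70.2% to 78.6% of the low genes used), which gave 16200000 to 19100000 fragments per intact sample, 15400000 to 18100000 per unsorted sample and 13400000 to 16900000 per sorted sample. The estimate covers counting error only and was used for rare genes alone.

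CuffDiff, the test of the study, needs alignments and was replaced by limma 3.58.1 (R 4.3.3) with a mean-variance trend on log2(FPKM + 0.1), fitted on the 8 samples compared after dropping genes that averaged under 1 FPKM, with Benjamini-Hochberg adjustment over all of them. The added constant shrinks the fold changes of low genes, which compare means of log values and so can still exceed the ratio of group means. A call needs an adjusted p under 0.05, a log2 ratio of means beyond 0.5 and an average over 5 FPKM on the higher side. The limma and depth steps were tested on simulated data. Ratios between members were compared with exact two-sided permutation tests. The members and gene lists were chosen with earlier results of these data known, and every member is named; of the lists, the genes of largest change and those with a role beside the members. Same-numbered samples were not more alike than others over all genes (correlation of deviations -0.143 to 0.067, against -0.256 to 0.170 for different numbers). The labels do not say whether the numbers pair samples, and the main tests treated them as unpaired. Alternatives were other pseudocounts, filters, scalings, a replicate block, 1 fit of all samples, leaving out each sample and averaging unsorted replicates 1 and 2, the closest pair. Some genes of the lists are counted but not reported by name here.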

Additional observations from a re-analysis of the deposited data

Results flagged for a closer look

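Of 57 sets of 4 samples examined (members and marker sums by group), 8 had a sample far from the other samples of its set by Dixon's ratio of gap to range; chance flags about 1 in 20. Among the members, Egr4 was listed at 0 in intact replicate 1, against about 1 fragment in the other intact samples, and Nr4a3 reached 0.148 FPKM in MACS-sorted replicate 2 alone, the sample lowest for the other Nr4a genes.

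Intact replicate 1 stood apart with the highest satellite glia sum (571.7 FPKM) and macrophage sum (64.6 FPKM). MACS-sorted replicate 4, the highest sorted sample for Egr2, Nr4a1 and Nr4a2, stood apart with the highest sums of myelinating Schwann cell (1204 FPKM), macrophage (2.22 FPKM) and lymphocyte markers (3.75 FPKM). Unsorted replicate 3 had the highest pan-neuronal sum (6702 FPKM).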

How the results depend on the processing

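Of 256 alternatives run for single members, 232 kept the direction and the side of the threshold. Egr1 kept its call on dissociation in 19 of 19 (log2 2.89 to 3.71, limma adjusted p 0.00187 to 0.017), as did Egr2 (-5.14 to -2.83) and Nr4a1 (-3.36 to -2.31) on sorting. Egr3 on sorting passed in 18 of 18 (-3.31 to -1.67). Egr2 against intact DRG kept its call in 17 of 17 (-4.27 to -2.03). Nr4a1 on dissociation passed in 10 of 19 (adjusted p 0.0328 to 0.169), Egr3 on dissociation in 15 of 18 (0.0219 to 0.0659) and Egr1 on sorting in 14 of 19 (0.00217 to 0.0968). With 1 FPKM added, the ratio of Egr1 to Egr3 on sorting reversed (-0.043 against 1.13), and 1 of the 4 ratios, not 3, passed on sorting.

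Members past the threshold on dissociation were 3, and 1 with all 12 samples in one fit, or 1 to 3 with a sample left out; on sorting 4, or 3 to 5; against intact DRG 2, or 2 to 4 (4 without MACS-sorted replicate 4), and 1 with a filter of 5 FPKM. Genes called in all were 873 on dissociation, 165 with a log2 ratio beyond 1, 1349 with a mean above 1 FPKM, and 579 to 885 with a sample left out. On sorting 2486 became 1139 (ratio beyond 1; 2425 to 2544 leaving out samples), and against intact DRG 2235 became 1011 (2059 to 2309). Quantile normalization moved the split from 981 higher and 1505 lower to 1405 and 1270 on sorting, from 531 and 342 to 402 and 409 on dissociation and from 922 and 1313 to 1237 and 1164 against intact DRG. Members expressed were 4, 5 and 2 at a limit of 1 FPKM, 0 in MACS-sorted DRG at 10 FPKM, and, leaving out samples, 1 to 2 (intact), 3 (unsorted) and 1 (sorted). Of the 15 most similar genes 1 remained with Spearman's rho and 13 without intact replicate 1. The causes were not tested.

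A replicate block gave 3, 5 and 3 members past the threshold, although the labels do not say whether the numbers pair samples. The block added Nr4a2 on sorting (limma, adjusted p = 0.00656) and Nr4a1 against intact DRG (0.0484). Nr4a2 on sorting also passed with all 12 samples in one fit (0.0258), with 1 FPKM added (0.0436) and without MACS-sorted replicate 4 (0.00887). With no filter, Nr4a3 passed against intact DRG (-1.45, adjusted p = 0.0122) and Egr4 on dissociation (0.70, adjusted p = 0.0475), at 0 to 41 fragments. Ratio tests were not run with a sample left out.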
